A study of Mus musculus with 55 samples.

Results

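The liver's genes for making, burning and storing glucose were followed across 55 livers of male mice that differed in the urea cycle gene Otc and in knockdown of Gls2 or Glud1. The set held 35 genes of glycolysis, gluconeogenesis and glycogen metabolism, picked by name from the table's 24475 symbols. The rule that names them uses no measured value, although earlier results of these data were known when they were chosen. All 35 passed the filter on low counts, which kept 13311 genes for testing. By role they comprised 5 glucose output enzymes and transporters, 4 regulators, 6 genes of glucose uptake and phosphorylation, 7 of upper glycolysis, 7 of lower glycolysis and 6 of glycogen.

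Between meals the liver releases glucose that it makes from lactate, glycerol and the carbon of amino acids, or takes from glycogen. Glucagon, through cyclic AMP, and glucocorticoids raise transcription of Pck1 and Ppargc1a, while insulin, through Akt, keeps the transcription factor FOXO1 out of the nucleus and lowers the same programme. Hepatocytes phosphorylate glucose mainly with glucokinase, whereas the other hexokinases and the M form of pyruvate kinase are better known from other cell types and from dividing cells. Amino acid nitrogen is disposed of through the urea cycle, in which Otc makes citrulline. Gls2 releases ammonia from glutamine and Glud1 releases it from glutamate, and the carbon skeleton left behind can enter gluconeogenesis.

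RNA was sequenced from the livers of mice of 2 strains, B6EiC3SnF1/J (WT) and B6EiC3Sn a/A-Otcspf-ash/J (OTC), which carry the normal Otc gene and the spf-ash variant of it. At 4 months of age each mouse received an adeno-associated virus (AAV) in a vein with a short hairpin RNA (sh) that was scrambled (control) or aimed at Gls2 or Glud1. From week 2 after the injection the chow was replaced by a diet with 40% protein, and livers were taken at week 5, at a labelled age of 5 months. The WT groups held 10 control, 10 sh-Gls2 and 9 sh-Glud1 livers, and the OTC groups held 8 control, 10 sh-Gls2 and 8 sh-Glud1 livers, each from its own mouse. All groups shared the virus, the hairpin backbone and the high protein diet, so no comparison showed the effect of these. The promoter that drives the hairpin is not given in the sources used here, and the strain background and the Otc variant cannot be told apart.

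Library totals ran from 14489866 to 22781052 counts, with a median of 18683991. The targeted genes followed the labels. Otc lay at 43.02 to 79.1 CPM (counts scaled to library size and composition) in livers of OTC controls, while WT controls had 473 to 596 CPM. Gls2 fell by 1.11 on the log2 scale under sh-Gls2 in WT and by 1.15 in OTC livers, and Glud1 fell by 1.42 and 1.27 under sh-Glud1. Summed hepatocyte markers lay between 84932 and 144589 CPM in every liver. Some libraries stood apart: the summed CPM of 12 glucocorticoid-responsive genes was 12649 and 9103 in OTC control mice 3 and 67 and 10779 and 7492 in OTC sh-Glud1 mice 58 and 65, against 2218 to 4592 in the other 51 livers. WT control mouse 13 had 1.40 CPM of the male-biased liver gene Hsd3b5 against 81.2 to 270.2 CPM in the other 9 WT controls. Where leaving these libraries out changed the call of a member, the value without them stands beside it.

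In OTC control against WT control livers 15 of the 35 genes were called at an adjusted p under 0.05 (edgeR's quasi-likelihood test), 11 higher and 4 lower. The background was 19.9% of all tested genes called higher and 16.3% called lower. The 35 genes had a median log2 fold change of 0.10, against 0.02 over all genes. The genes that rose were Pck1, Slc37a4, Ppargc1a, Foxo1, Irs2, Gpi1, Pfkfb3, Aldoa, Tpi1, Pgk1 and Pgam1, and those that fell were Pklr, Ldha, Pygl and Ppp1r3c. Without OTC control mice 3 and 67 the count was 10, 7 higher and 3 lower. On log2(TPM + 1), where the median of all genes was 0.10, 14 of the set were higher and 2 lower, and of all genes 3876 were higher and 1127 lower against 2643 and 2171 on counts.

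Knockdown of Gls2 gave 14 calls in WT livers, 11 higher and 3 lower, against a background of 17.6% and 17.2%. In OTC livers it gave 17 calls, 10 higher and 7 lower, against 20.1% and 22.5%. Rises called in both strains were those of Hk1, Hk2, Gpi1, Pfkp, Pfkfb3, Aldoa, Gapdh, Pgam1, Pkm and Ugp2, and falls called in both were those of Pfkl, Ldha and Ppp1r3c. Hk3 rose in WT livers, and Fbp1, Foxo1, Tpi1 and Ppp1r3b fell in OTC livers. Both comparisons used their own strain's controls. The OTC controls entered the strain comparison too, as the group above the line there and below it here.

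Knockdown of Glud1 gave 0 calls among the 35 genes in either strain. Over all genes, 0% were called higher and 0.0225% lower in WT livers, and 0% higher and 0.015% lower in OTC livers. At an unadjusted p under 0.05 the counts were 4 of the 35 genes (Hk1, Hk2, Khk and Gapdh) and 692 of all genes in WT livers, and 0 and 632 in OTC livers, and DESeq2 also called 0 of the 35 in both. Set against sh-Glud1 in place of the scrambled hairpin, sh-Gls2 gave 11 calls in WT livers, 5 higher and 6 lower (background 15.5% and 14.1%), and 13 in OTC livers, 7 higher and 6 lower (background 19.4% and 21%). The effect of sh-Gls2 differed between strains for Gpi1 and Aldoa, against a background of 0.331% of all genes. The effect of sh-Glud1 differed between strains for 0 of the 35 genes by edgeR and by DESeq2, against a background of 0%, with 3 of the 35 (Pcx, Hk2 and Khk) and 415 of all genes at an unadjusted p under 0.05.

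**Figure D1:**
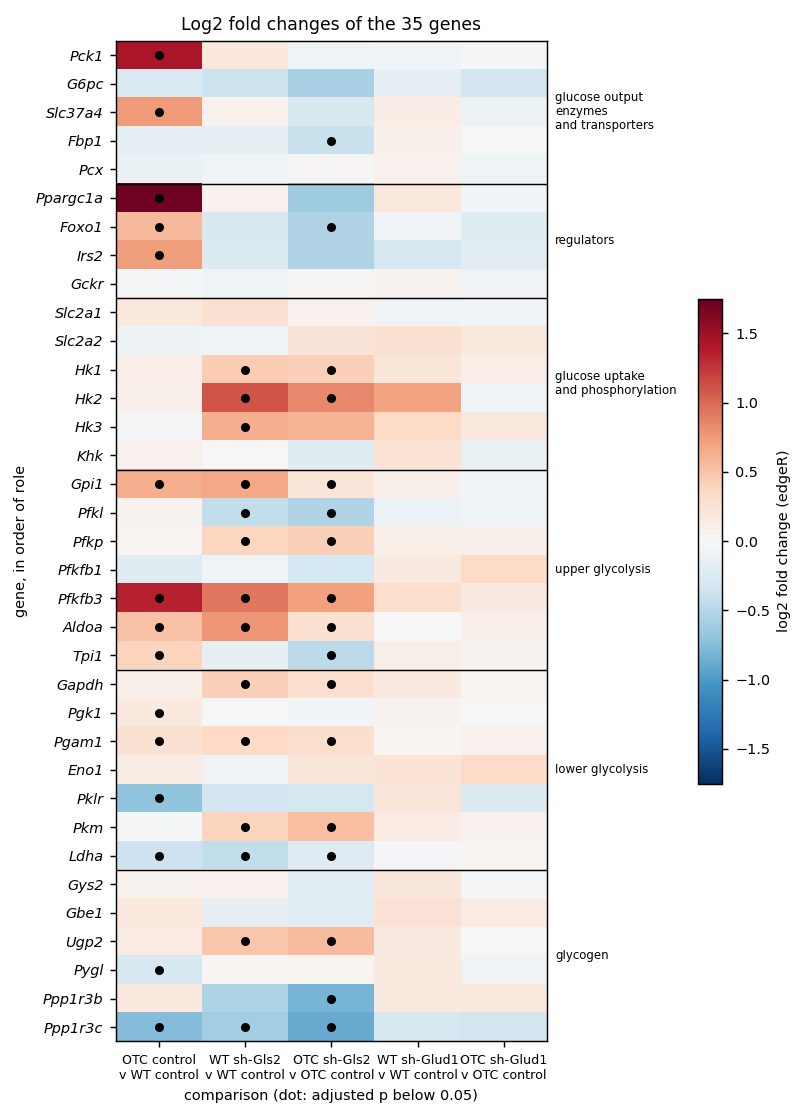
Log2 fold changes of the 35 genes (rows, by role) in the 5 comparisons with a control group (columns), with a dot where the adjusted p was under 0.05. The sh-Gls2 columns hold 14 dots in WT and 17 in OTC livers, the strain column holds 15 and the sh-Glud1 columns hold 0.

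Levels between genes were compared per length, as TPM (transcript shares corrected for gene length). Over all 55 livers Gapdh (1689 TPM), Pck1 (1396 TPM) and Fbp1 (815 TPM) had the highest means, and Hk2 (0.447 TPM), Pfkp (0.880 TPM) and Hk3 (0.930 TPM) the lowest. In WT control livers Pck1, which turns oxaloacetate into phosphoenolpyruvate, averaged 731 ± 160.3 TPM (SD, n = 10). Pklr, the liver form of pyruvate kinase, averaged 91.6 ± 37.6 TPM there and Pkm, the form of other tissues, 8.05 ± 1.42 TPM. Of the phosphofructokinases the liver form Pfkl was highest at 13.1 ± 1.04 TPM and the platelet form Pfkp lowest at 0.722 ± 0.187 TPM, with the muscle form Pfkm, which is not in the set, at 8.78 ± 1.07 TPM. The hexokinases were low, with Hk1 at 1.06 ± 0.145, Hk3 at 0.704 ± 0.185 and Hk2 at 0.285 ± 0.114 TPM.

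**Figure D2:**
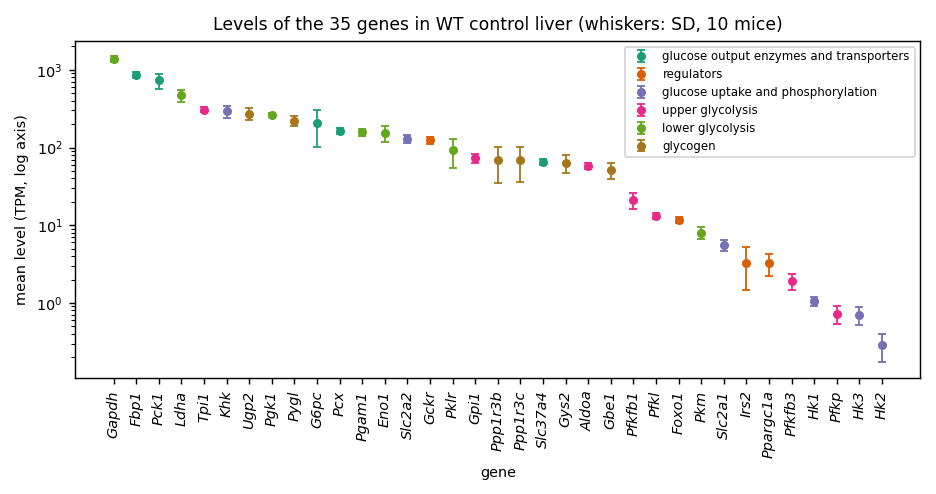
Mean TPM of each of the 35 genes in the 10 WT control livers on a log axis, with the SD as whiskers and the role as colour. Enzymes of glucose output and of lower glycolysis take the top of the axis and Hk1, Hk2, Hk3 and Pfkp the bottom.

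Pck1 was the member with the second largest strain difference, and its promoter, with those of Ppargc1a and G6pc, is printed because all 3 are known targets of glucagon, of which Pck1 and Ppargc1a were called higher in OTC controls and G6pc was not called. The promoters are 300 bases from RefSeq (GRCm38.p6), 250 before the transcription start and 50 after it, read 5′ to 3′ on the gene's strand. Capitals mark the core of the cyclic AMP response element, TGACG or its reverse complement CGTCA. For Pck1 the window is chr2:173152823-173153122 on the plus strand, for Ppargc1a chr5:51567676-51567975 on the minus strand and for G6pc chr11:101367466-101367765 on the plus strand.
Pck1: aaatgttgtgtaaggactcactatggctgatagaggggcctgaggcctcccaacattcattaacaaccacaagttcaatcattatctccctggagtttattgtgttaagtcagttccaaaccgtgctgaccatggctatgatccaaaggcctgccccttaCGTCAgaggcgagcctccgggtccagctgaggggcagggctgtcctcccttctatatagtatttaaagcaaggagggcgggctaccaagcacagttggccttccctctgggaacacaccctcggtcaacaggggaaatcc
Ppargc1a: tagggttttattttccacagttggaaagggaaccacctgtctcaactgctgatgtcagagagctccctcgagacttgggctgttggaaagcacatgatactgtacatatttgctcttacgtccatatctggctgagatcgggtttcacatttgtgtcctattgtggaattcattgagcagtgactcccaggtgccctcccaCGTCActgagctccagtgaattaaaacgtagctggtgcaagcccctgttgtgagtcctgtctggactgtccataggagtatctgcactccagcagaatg
G6pc: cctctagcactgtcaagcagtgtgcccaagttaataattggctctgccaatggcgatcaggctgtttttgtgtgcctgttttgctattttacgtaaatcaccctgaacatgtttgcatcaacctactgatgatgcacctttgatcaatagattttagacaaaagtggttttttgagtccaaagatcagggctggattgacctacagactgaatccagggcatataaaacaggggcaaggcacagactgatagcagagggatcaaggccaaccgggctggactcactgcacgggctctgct
The core began 90 bases before the start of Pck1 and 49 bases before that of Ppargc1a, and these letters were not in the window of G6pc. Other forms of the element were not searched, so this does not show that G6pc lacks one. RefSeq promoters were found for 33 of the 35 genes, 49 promoters in all. The core was in 12 of the 49, belonging to 9 genes, and in 20.8% of all 32851 promoters of this length. The whole element TGACGTCA, which contains the core, was in 1 promoter of the set, that of Ldha, and in 1.79% of all. The hypoxia response core ACGTG was in 20 promoters of 18 genes, against 19.6% of all. The E-box CACGTG, which contains ACGTG, was in 6 promoters (7.15% of all), TATAAA in 5 (13.6%), and the forkhead site TGTTTAC and the D-box TTATGTAA in 0 (3.65% and 0.938%). Both strands were searched, and a match describes letters only.

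Glucose output. Pck1 rose most among the 5 enzymes and transporters when OTC controls were set against WT controls, 2.68-fold by mean CPM. Pck1 levels were 869 to 1660.4 CPM (median 1149) in WT control and 1069 to 6380.3 CPM (median 2589) in OTC control livers. Under sh-Gls2, Pck1 was at 932 to 2095 CPM (median 1247) in WT and 1877 to 3884 CPM (median 2972) in OTC livers. Under sh-Glud1, Pck1 was at 769 to 1392 CPM (median 1204) in WT and 1356 to 5988 CPM (median 2548) in OTC livers. The strain ranges overlapped in all 3 vector groups, and 8 of the 10 OTC sh-Gls2 livers lay above every WT liver. The 4 highest values were those of OTC control mice 3 and 67 (6380.3 and 6200.2 CPM) and OTC sh-Glud1 mice 58 and 65 (5988 and 5029 CPM). The log2 fold change of OTC over WT controls was 1.42 ± 0.24 (SE, adjusted p = 8.3e-06) with all libraries and 0.84 (adjusted p = 0.0026) without mice 3 and 67. Under sh-Gls2, Pck1 did not pass the test in WT (0.18 ± 0.23, adjusted p = 0.56) or OTC livers (-0.07 ± 0.24, adjusted p = 0.84). Without mice 3 and 67 the OTC difference was 0.50 and did not pass (adjusted p = 0.072). Without all 4 livers, an omission chosen after the data were seen, it was 0.50 and passed (adjusted p = 0.033).

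Slc37a4 carries glucose 6-phosphate into the endoplasmic reticulum, where the last step of glucose release takes place. Slc37a4 levels were 70.7 to 88.1 CPM (median 77.96) in WT control and 65.004 to 317 CPM (median 84.2) in OTC control livers. Under sh-Gls2, Slc37a4 was at 67.6 to 100.3 CPM (median 82.9) in WT and 78.1 to 155 CPM (median 108) in OTC livers. Under sh-Glud1, Slc37a4 was at 75.2 to 117 CPM (median 82.2) in WT and 69.02 to 239 CPM (median 103) in OTC livers. The strain ranges overlapped, and OTC control mice 3 and 67, at 317 and 226 CPM, held the top of theirs. The strain difference of 0.74 ± 0.21 (adjusted p = 0.0036) was 0.11 (adjusted p = 0.64) without these 2 mice and lost its call without mouse 3 alone (0.41, adjusted p = 0.077). Under sh-Gls2 the log2 difference in OTC livers was -0.28 ± 0.21 (adjusted p = 0.29), 0.35 (adjusted p = 0.079) without mice 3 and 67, and 0.35 (adjusted p = 0.013) without the 4 livers.

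Fbp1, which removes a phosphate from fructose 1,6-bisphosphate, fell under sh-Gls2 in OTC livers. Fbp1 levels were 452 to 814 CPM (median 639) in OTC control, 419 to 551 CPM (median 471) in OTC sh-Gls2 and 495 to 974 CPM (median 579) in OTC sh-Glud1 livers. In WT livers Fbp1 was at 552 to 794 CPM (median 726) in controls, 556 to 748 CPM (median 625) under sh-Gls2 and 624 to 912 CPM (median 739) under sh-Glud1. The OTC sh-Gls2 livers held the low end, in a range that overlapped the other OTC groups and lay just below that of WT controls. The fall was -0.39 ± 0.10 (adjusted p = 0.0017) against OTC controls and -0.38 ± 0.10 (adjusted p = 0.0021) against OTC sh-Glud1, and the WT difference was -0.16 ± 0.10 (adjusted p = 0.2), with no strain difference called (-0.23 ± 0.14, adjusted p = 0.56). Pcx, the pyruvate carboxylase that opens gluconeogenesis, was at 386 to 467 CPM (median 415) in WT control, 358 to 446 CPM (median 402) in WT sh-Gls2 and 398 to 511 CPM (median 447) in WT sh-Glud1 livers. In OTC livers Pcx was at 340.2 to 466 CPM (median 389.8), 325 to 463 CPM (median 396) and 331 to 395 CPM (median 373) in the same order. Within each strain the ranges overlapped. Pcx was lower in WT sh-Gls2 than in WT sh-Glud1 livers (-0.16 ± 0.05, adjusted p = 0.023), a call lost without the library of WT sh-Glud1 mouse 15 (log2 fold change -0.13, adjusted p 0.055). It was also lower in OTC than in WT controls once mice 3 and 67 were left out (-0.19, adjusted p = 0.0092, against -0.12, adjusted p = 0.09, with them), and in 2 of 18 omissions of 1 library, those of WT control mouse 20 and of OTC control mouse 3 (log2 fold change -0.17 to -0.14, adjusted p 0.014 to 0.047). G6pc, the phosphatase that frees glucose, passed the test in none of the 9 comparisons. Its group means lay between 158 (OTC sh-Gls2) and 284 CPM (WT control), with 52.1 to 486 CPM over single livers.

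**Figure D3:**
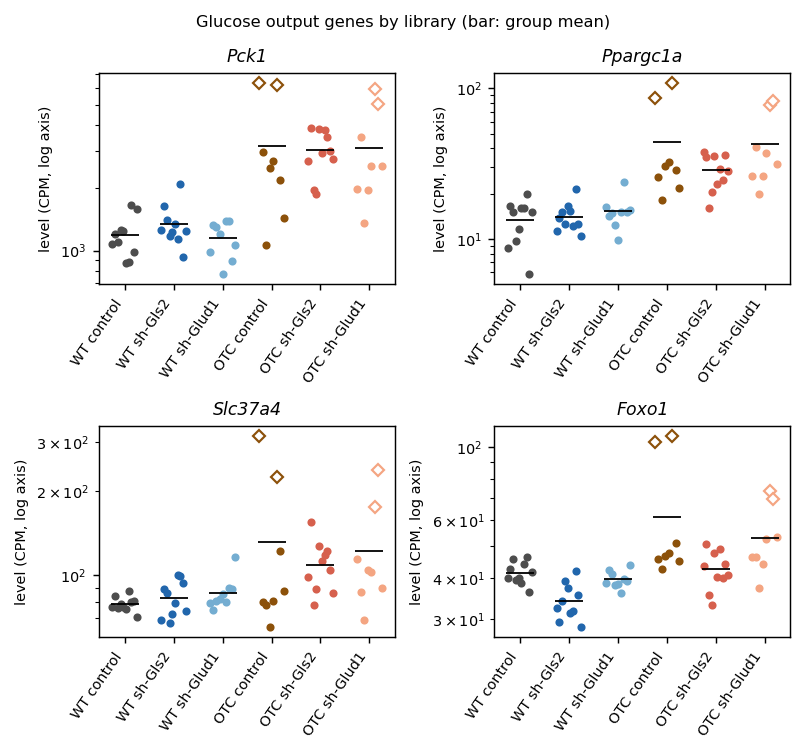
CPM of Pck1, Ppargc1a, Slc37a4 and Foxo1 in each liver by group on a log axis, with a bar at the group mean and open diamonds for OTC control mice 3 and 67 and OTC sh-Glud1 mice 58 and 65. The 4 diamonds are the highest points of every panel, from 5029 to 6380.3 CPM for Pck1.

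Regulators. Ppargc1a, a coactivator that raises gluconeogenic transcription, had the largest strain difference of the 35 genes. Ppargc1a levels were 5.82 to 19.8 CPM (median 15.2) in WT control and 18.02 to 108 CPM (median 29.5) in OTC control livers. Under sh-Gls2, Ppargc1a was at 10.5 to 21.3 CPM (median 13.1) in WT and 16.1 to 37.7 CPM (median 28.6) in OTC livers. Under sh-Glud1, Ppargc1a was at 9.84 to 23.7 CPM (median 15.1) in WT and 19.97 to 81.6 CPM (median 34.3) in OTC livers. OTC control mice 3 and 67 stood highest at 86.5 and 108 CPM, and the control ranges overlapped only between 18.02 and 19.8 CPM. The strain difference was 1.71 ± 0.27 (adjusted p = 3.2e-06) and 0.95 (adjusted p = 0.0015) without those 2 mice. Under sh-Gls2 in OTC livers it was -0.62 ± 0.27 (adjusted p = 0.056), short of the threshold, and DESeq2 called it lower (adjusted p = 0.046). It was also called lower in 9 of 18 omissions of 1 library, those of OTC control mice 35, 38, 43, 46 and 72 and the unnumbered OTC control mouse and of OTC sh-Gls2 mice 4, 21 and 73 (log2 fold change -0.73 to -0.66, adjusted p 0.023 to 0.050). Each of these omissions kept OTC control mice 3 and 67, and without both of them Ppargc1a was not called.

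Foxo1, the forkhead factor that insulin holds in check, rose in OTC over WT controls and fell under sh-Gls2 in OTC livers, and both calls rested on mice 3 and 67. Foxo1 levels were 36.2 to 46.4 CPM (median 40.9) in WT control, 28.3 to 41.9 CPM (median 33.2) in WT sh-Gls2 and 36.1 to 43.8 CPM (median 39.1) in WT sh-Glud1 livers. In OTC livers Foxo1 was at 42.7 to 108 CPM (median 47.2), 33.1 to 50.9 CPM (median 42.1) and 37.3 to 73.3 CPM (median 49.4) in the same order. Within each strain the ranges overlapped, as did those of the controls, and the 2 mice had 104 and 108 CPM. The strain difference of 0.56 ± 0.13 (adjusted p = 7.1e-04) was 0.15 (adjusted p = 0.23) without them. The sh-Gls2 difference of -0.53 ± 0.13 (adjusted p = 0.001) was -0.13 (adjusted p = 0.28). In WT livers the sh-Gls2 difference was -0.28 ± 0.13 and not called (adjusted p = 0.074). It passed when only the compared groups entered the fit (-0.28, adjusted p = 0.0019) and when mice 3 and 67 of the OTC controls and mouse 13 of the WT controls were left out (-0.27, adjusted p = 0.0091).

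Irs2, the adaptor that passes on the insulin signal, was at 3.95 to 18.2 CPM (median 7.72) in WT control, 2.4003 to 11.04 CPM (median 7.96) in WT sh-Gls2 and 3.91 to 12.5 CPM (median 5.42) in WT sh-Glud1 livers. In OTC livers Irs2 was at 8.25 to 19.2 CPM (median 14.7), 5.42 to 15.6 CPM (median 9.19) and 6.54 to 18.4 CPM (median 12.8) in the same order. Under sh-Gls2 in OTC livers Irs2 was not called, but with only the compared groups fitted it was called lower (-0.52, adjusted p = 0.032). Irs2 was higher in OTC than in WT controls (0.73 ± 0.27, adjusted p = 0.031), with overlapping ranges. That call was lost with only the compared groups fitted (adjusted p = 0.060) and with the mouse number as covariate (adjusted p = 0.076). It was lost too without mice 3 and 67 (0.57, adjusted p = 0.14) and in 8 of 18 omissions of 1 library, those of WT control mice 11, 13, 19 and 20 and of OTC control mice 3, 35 and 67 and the unnumbered OTC control mouse (log2 fold change 0.64 to 0.69, adjusted p 0.052 to 0.077). Gckr, which holds glucokinase in the nucleus, passed the test in none of the 9 comparisons, with group means between 149 (OTC sh-Glud1) and 165 CPM (WT sh-Glud1).

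A list of glucocorticoid-responsive genes was read beside these regulators. Its summed level had a median of 3270 CPM in WT and 3641 CPM in OTC controls, or 3393 CPM without mice 3 and 67. In OTC against WT controls 6 of its 12 tested genes rose and 1 fell, and Fkbp5, a chaperone gene that glucocorticoids raise, rose by 2.99 ± 0.42 on the log2 scale (adjusted p = 3.0e-07). Without mice 3 and 67, at 435 and 222 CPM of Fkbp5, its rise was 1.52 (adjusted p = 2.9e-04), and 4 of the 12 genes rose and 2 fell. None of the 12 was at 0 in any group. Of all tested genes 19.9% were called higher and 16.3% lower between the controls. Without mice 3 and 67 these shares were 13.9% and 14.8%. Of 19 clock genes 4 rose and 3 fell (2 and 2 without mice 3 and 67), near these shares. Dbp, a clock output gene, differed by 0.66 ± 0.69 (adjusted p = 0.48). It varied widely between mice of a group, from 0.125 to 72.6 CPM in WT and from 4.34 to 108 CPM in OTC controls. Of 11 pericentral markers 0 rose and 7 fell, and of 11 periportal markers 6 rose and 1 fell, or 2 rose and 1 fell without mice 3 and 67. Gluconeogenesis is known to be more active on the periportal side of the lobule. Summed pericentral markers were 4373 to 11106 CPM in WT and 4507 to 9241 CPM in OTC controls, and summed periportal markers 6615 to 9964 CPM and 8231 to 18351 CPM. Mice 3 and 67 held the top of that last range, at 18351 and 15876 CPM, and the other 6 OTC controls lay at 8231 to 10172 CPM. Under sh-Gls2 in OTC livers 5 pericentral markers rose and 0 fell, and 3 periportal markers rose and 5 fell (3 and 3 without mice 3 and 67). The periportal list holds Gls2 itself, the target of the hairpin (-1.15, adjusted p = 5.5e-13), so its fall was set by the design. Fbp1 and Tpi1 fell in the same comparison, and Foxo1 was called lower there only with mice 3 and 67 included. Of 9 hepatocyte markers 0 rose and 4 fell under sh-Gls2 in OTC livers. The background in this comparison was 20.1% higher and 22.5% lower, or 18.6% and 19.6% without mice 3 and 67. Summed pericentral and periportal markers were 3944 to 8764 CPM and 7107 to 9105 CPM in those livers. The part of these lists in the differences was not tested. Beyond this, fewer cells of a type and less RNA per cell cannot be told apart in whole liver.

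Glucose uptake and phosphorylation. None of the 6 genes passed the test between OTC and WT controls. Under sh-Gls2, Hk1 and Hk2 rose in both strains and Hk3 in WT livers. Hk1, the hexokinase present in most tissues, was at 2.36 to 3.51 CPM (median 2.82) in WT control, 3.44 to 4.46 CPM (median 3.76) in WT sh-Gls2 and 2.57 to 4.05 CPM (median 3.197) in WT sh-Glud1 livers. In OTC livers Hk1 was at 2.38 to 3.63 CPM (median 3.07), 2.898 to 5.21 CPM (median 3.82) and 2.63 to 3.85 CPM (median 3.44) in the same order. Overlap with controls was narrow in WT and wider in OTC livers. The rise was 0.45 ± 0.10 in WT (adjusted p = 2.0e-04) and 0.41 ± 0.10 in OTC livers (adjusted p = 7.4e-04). Against sh-Glud1 it was 0.30 ± 0.10 in OTC livers (adjusted p = 0.015), and 0.23 (adjusted p = 0.065) without the 4 livers that stood apart.

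Hk2, the insulin-responsive hexokinase of muscle and fat, was at 0.467 to 1.48 CPM (median 0.976) in WT control, 1.14 to 4.71 CPM (median 1.85) in WT sh-Gls2 and 0.512 to 2.71 CPM (median 1.37) in WT sh-Glud1 livers. In OTC livers Hk2 was at 0.628 to 1.64 CPM (median 0.881), 1.36 to 2.71 CPM (median 1.9003) and 0.504 to 1.79 CPM (median 0.961) in the same order. The sh-Gls2 ranges overlapped their controls, and WT sh-Gls2 mouse 45 stood highest of all. Its rise of 1.11 ± 0.24 in WT (adjusted p = 2.5e-04) and 0.84 ± 0.26 in OTC livers (adjusted p = 0.0064) was the largest rise among the 35 genes in either strain. Against sh-Glud1 it was 0.40 ± 0.24 in WT (adjusted p = 0.21) and 0.91 ± 0.26 in OTC livers (adjusted p = 0.0039).

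Hk3, the hexokinase of white blood cells, was at 0.926 to 1.94 CPM (median 1.28) in WT control, 1.29 to 3.15 CPM (median 1.88) in WT sh-Gls2 and 1.04 to 2.804 CPM (median 1.55) in WT sh-Glud1 livers. In OTC livers Hk3 was at 0.162 to 1.7497 CPM (median 1.44), 1.404 to 2.43 CPM (median 1.997) and 0.3503 to 2.45 CPM (median 1.55) in the same order. OTC control mouse 3 was lowest at 0.162 CPM. The WT rise was 0.64 ± 0.24 (adjusted p = 0.029), a call lost in 3 of 20 omissions of 1 library, those of WT control mouse 10 and of WT sh-Gls2 mice 36 and 78 (log2 fold change 0.56 to 0.59, adjusted p 0.055 to 0.067), and the OTC difference was 0.59 ± 0.25 (adjusted p = 0.051) by edgeR and called by DESeq2 (adjusted p = 0.032). By edgeR it was called in 4 of 18 omissions of 1 library, those of OTC control mice 35, 43 and 46 and of OTC sh-Gls2 mouse 4 (log2 fold change 0.64 to 0.67, adjusted p 0.037 to 0.044). The strain difference in the effect was not called (-0.05 ± 0.34, adjusted p = 0.97).

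Slc2a2 and Slc2a1, the main and a minor glucose transporter of hepatocytes, and Khk, which phosphorylates fructose, passed the test in none of the 9 comparisons. Slc2a2 group means lay between 201 (OTC control) and 257 CPM (WT sh-Glud1), those of Slc2a1 between 8.796 (WT sh-Glud1) and 11.1 CPM (WT sh-Gls2), and those of Khk between 192 (OTC sh-Gls2) and 249 CPM (WT sh-Glud1). Under sh-Gls2 in OTC livers Slc2a2 was called higher without the library of OTC control mouse 72 (log2 fold change 0.42, adjusted p 0.029), and Khk lower in 2 of 18 omissions of 1 library, those of OTC control mouse 35 and of OTC sh-Gls2 mouse 49 (log2 fold change -0.27 to -0.25, adjusted p 0.03 to 0.043).

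Markers of other cells rose under sh-Gls2 beside the hexokinases. Of all tested genes 17.6% rose and 17.2% fell in WT livers, and 20.1% rose and 22.5% fell in OTC livers. Of 17 macrophage and Kupffer cell markers 14 rose in WT and 15 in OTC livers, and 0 fell. Their summed level was 224 to 422 CPM in WT control, 293 to 483 CPM in WT sh-Gls2, 174 to 376 CPM in OTC control and 316 to 528 CPM in OTC sh-Gls2 livers. All 9 tested markers of dividing cells rose in WT livers and 8 of 9 in OTC livers, from sums of 3.63 to 10.2 CPM and 3.75 to 5.43 CPM in controls to 12.3 to 70.3 CPM and 6.43 to 50.02 CPM. Stellate cell markers rose for 4 of 10 and 6 of 10 genes and endothelial markers for 2 of 10 and 8 of 10. The endothelial count in WT livers lay near the share of 17.6% over all genes. Summed stellate markers were 235 to 313 CPM and 239 to 295 CPM in WT and OTC controls and 265 to 435 CPM and 331 to 456 CPM under sh-Gls2, and summed endothelial markers 233 to 358 CPM, 235 to 335 CPM, 276 to 355 CPM and 299 to 423 CPM in the same order. Of 10 lymphocyte markers 0 were called in either strain. No marker of the macrophage, dividing, stellate or endothelial lists was at 0 in any group. The part of these cells in the changes of Hk1, Hk2, Hk3, Pfkp and Pkm was not tested.

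Upper glycolysis. Gpi1 and Aldoa rose in OTC over WT controls and under sh-Gls2 in both strains. Gpi1, which turns glucose 6-phosphate into fructose 6-phosphate, was at 89.7 to 111 CPM (median 98.5) in WT control and 126 to 207 CPM (median 148) in OTC control livers. Under sh-Gls2, Gpi1 was at 147 to 181 CPM (median 159) in WT and 163 to 198 CPM (median 177) in OTC livers. Under sh-Glud1, Gpi1 was at 92.9 to 119.5 CPM (median 104) in WT and 128 to 186 CPM (median 149) in OTC livers. The control ranges of the strains did not overlap, nor did those of WT control and WT sh-Gls2, whereas OTC control and OTC sh-Gls2 overlapped. Gpi1 rose by 0.63 ± 0.07 in OTC over WT controls (adjusted p = 5.1e-10). Under sh-Gls2 it rose by 0.68 ± 0.06 (adjusted p = 1.6e-12) in WT livers and 0.21 ± 0.07 (adjusted p = 0.011) in OTC livers. The OTC rise was thus smaller by 0.47 ± 0.09 (strain by hairpin interaction -0.47, adjusted p = 0.0096). Without OTC control mice 3 and 67 this difference was -0.34 (adjusted p = 0.061). Against sh-Glud1 the sh-Gls2 rise was 0.60 ± 0.07 in WT (adjusted p = 2.6e-10) and 0.26 ± 0.07 in OTC livers (adjusted p = 0.0019).

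Aldoa, the aldolase of muscle and red cells, was at 44.1 to 59.1 CPM (median 54.97) in WT control and 66.03 to 109 CPM (median 74.5) in OTC control livers. Under sh-Gls2, Aldoa was at 80.2 to 109.5 CPM (median 90.8) in WT and 84.8 to 114 CPM (median 92.7) in OTC livers. Under sh-Glud1, Aldoa was at 45.97 to 58.8 CPM (median 55.5) in WT and 63.8 to 109.6 CPM (median 81.7) in OTC livers. As with Gpi1, WT controls overlapped neither OTC controls nor WT sh-Gls2 livers. Aldoa rose by 0.52 ± 0.08 in OTC over WT controls (adjusted p = 1.9e-06), by 0.77 ± 0.08 under sh-Gls2 (adjusted p = 1.3e-11) in WT livers and 0.27 ± 0.08 (adjusted p = 0.0061) in OTC livers. The strain difference in the effect was -0.50 ± 0.11 (adjusted p = 0.028), called also without the 4 livers that stood apart. It was -0.43 (adjusted p = 0.061) without mice 3 and 67, and lost its call in 4 of 38 omissions of 1 library, those of WT sh-Gls2 mouse 1 and of OTC control mice 3 and 35 and of OTC sh-Gls2 mouse 31 (log2 fold change -0.48 to -0.41, adjusted p 0.052 to 0.083). Against sh-Glud1 Aldoa was higher in WT sh-Gls2 livers (0.76 ± 0.08, adjusted p = 6.0e-11). In OTC livers that difference was 0.18 ± 0.08 (adjusted p = 0.074), and 0.26 (adjusted p = 0.0046) without the 4 livers that stood apart. In WT sh-Gls2 mouse 34, where summed erythroid markers were 1792 CPM and muscle markers 68.3 CPM, the highest of all livers, Aldoa was 89.6 CPM, and without that mouse the WT rise was 0.77 (adjusted p = 4.7e-11).

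Pfkl, the phosphofructokinase that commits sugar to glycolysis, fell under sh-Gls2 in both strains. Pfkl levels were 27.7 to 36.6 CPM (median 31.4) in WT control, 18.8 to 28.5 CPM (median 23.1) in WT sh-Gls2 and 26.1 to 33.4 CPM (median 28.3) in WT sh-Glud1 livers. In OTC livers Pfkl was at 26.9 to 37.5 CPM (median 33.3), 20.5 to 26.9 CPM (median 22.2) and 27.3 to 36.5 CPM (median 30.5) in the same order. Every OTC sh-Gls2 liver lay below every OTC control, by a narrow gap, and the WT ranges overlapped. The fall was -0.44 ± 0.07 in WT (adjusted p = 1.0e-06) and -0.53 ± 0.07 in OTC livers (adjusted p = 4.3e-08). Against sh-Glud1 it was -0.34 ± 0.07 (adjusted p = 1.8e-04) and -0.46 ± 0.07 (adjusted p = 8.8e-07). The minor form Pfkp rose by 0.37 ± 0.15 in WT (adjusted p = 0.047) and 0.41 ± 0.16 in OTC livers (adjusted p = 0.031), with group means between 1.85 (WT control) and 2.56 CPM (OTC sh-Gls2). These calls were lost in 13 of 20 omissions of 1 library, those of WT control mice 2, 10, 11, 28, 41 and 77 and of WT sh-Gls2 mice 1, 14, 18, 30, 36, 78 and 79 (log2 fold change 0.31 to 0.39, adjusted p 0.051 to 0.11) in WT, and in 5 of 18 omissions of 1 library, those of OTC control mice 3, 35, 43 and 72 and of OTC sh-Gls2 mouse 31 (log2 fold change 0.35 to 0.40, adjusted p 0.050 to 0.079) in OTC livers.

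Pfkfb3 makes fructose 2,6-bisphosphate, the activator of phosphofructokinase, and is a target of hypoxia signalling. Pfkfb3 levels were 3.49 to 7.29 CPM (median 5.79) in WT control and 4.59 to 31.1 CPM (median 8.105) in OTC control livers. Under sh-Gls2, Pfkfb3 was at 6.18 to 15.7 CPM (median 10.4) in WT and 13.1 to 42.9 CPM (median 20.9) in OTC livers. Under sh-Glud1, Pfkfb3 was at 4.698 to 9.46 CPM (median 7.27) in WT and 5.05 to 32.6 CPM (median 14.9) in OTC livers. OTC groups spread more widely than the matching WT groups and overlapped them. The strain difference was 1.35 ± 0.29 (adjusted p = 3.1e-04), and 0.92 (adjusted p = 0.017) without mice 3 and 67. Under sh-Gls2 it rose by 0.92 ± 0.28 in WT (adjusted p = 0.0093) and 0.71 ± 0.29 in OTC livers (adjusted p = 0.039), and the OTC call was lost in 9 of 18 omissions of 1 library, those of OTC control mice 35, 38, 43 and 46 and the unnumbered OTC control mouse and of OTC sh-Gls2 mice 50, 60, 73 and 74 (log2 fold change 0.58 to 0.70, adjusted p 0.050 to 0.097). Of 13 tested hypoxia targets outside the set, 7 rose and 0 fell in OTC over WT controls, among them Vegfa (0.44 ± 0.08, adjusted p = 3.8e-05). Without mice 3 and 67, 5 rose and 1 fell, and Vegfa was at 0.47 (adjusted p = 4.3e-05). The background was 19.9% higher and 16.3% lower, or 13.9% and 14.8% without these mice. Under sh-Gls2, 2 of these targets rose and 4 fell in WT livers (background 17.6% and 17.2%). In OTC livers, with mice 3 and 67 kept among the controls, 3 of them rose and 5 fell (background 20.1% and 22.5%). Their summed level was 319.6 to 463 CPM in WT control, 468 to 1281 CPM in OTC control, 329 to 419 CPM in WT sh-Gls2 and 379 to 550.3 CPM in OTC sh-Gls2 livers. Mice 3 and 67 held the top of the OTC control range, at 1281 and 681 CPM, and the other 6 OTC controls lay at 468 to 607 CPM. The part of hypoxia signalling was not tested.

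Pfkfb1, the liver's own bifunctional enzyme, was at 17.001 to 32.8 CPM (median 23.2) in WT control, 13.2 to 34.4 CPM (median 22.6) in WT sh-Gls2 and 18.5 to 43.7 CPM (median 24.1) in WT sh-Glud1 livers. In OTC livers Pfkfb1 was at 13.6 to 33.9 CPM (median 16.97), 10.3 to 22.1 CPM (median 14.8) and 18.02 to 38.8 CPM (median 24.9) in the same order, overlapping throughout. It was lower in OTC sh-Gls2 than in OTC sh-Glud1 livers (-0.66 ± 0.18, adjusted p = 0.0027). The strain difference was -0.22 ± 0.18 (adjusted p = 0.36), and -0.55 (adjusted p = 0.017) without mice 3 and 67.

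Tpi1, which interconverts both triose phosphates, rose with the strain and fell under sh-Gls2 in OTC livers. Tpi1 levels were 249 to 329 CPM (median 290.2) in WT control and 318 to 464 CPM (median 367) in OTC control livers. Under sh-Gls2, Tpi1 was at 217 to 303 CPM (median 260.1) in WT and 245 to 299 CPM (median 274) in OTC livers. Under sh-Glud1, Tpi1 was at 296 to 344 CPM (median 304) in WT and 346 to 509 CPM (median 381) in OTC livers. Every OTC sh-Gls2 liver lay below every OTC control. The strain difference was 0.39 ± 0.06 (adjusted p = 5.6e-06), the OTC fall -0.46 ± 0.06 (adjusted p = 1.0e-07) and the WT difference -0.14 ± 0.06 (adjusted p = 0.074), with no call for the difference between strains (-0.32 ± 0.09, adjusted p = 0.096). The WT difference was called in 2 of 20 omissions of 1 library, those of WT control mouse 7 and of WT sh-Gls2 mouse 45 (log2 fold change -0.16, adjusted p 0.031 to 0.037). Against sh-Glud1 it fell in WT (-0.24 ± 0.06, adjusted p = 0.0022) and in OTC livers (-0.52 ± 0.06, adjusted p = 5.2e-09).

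**Figure D4:**
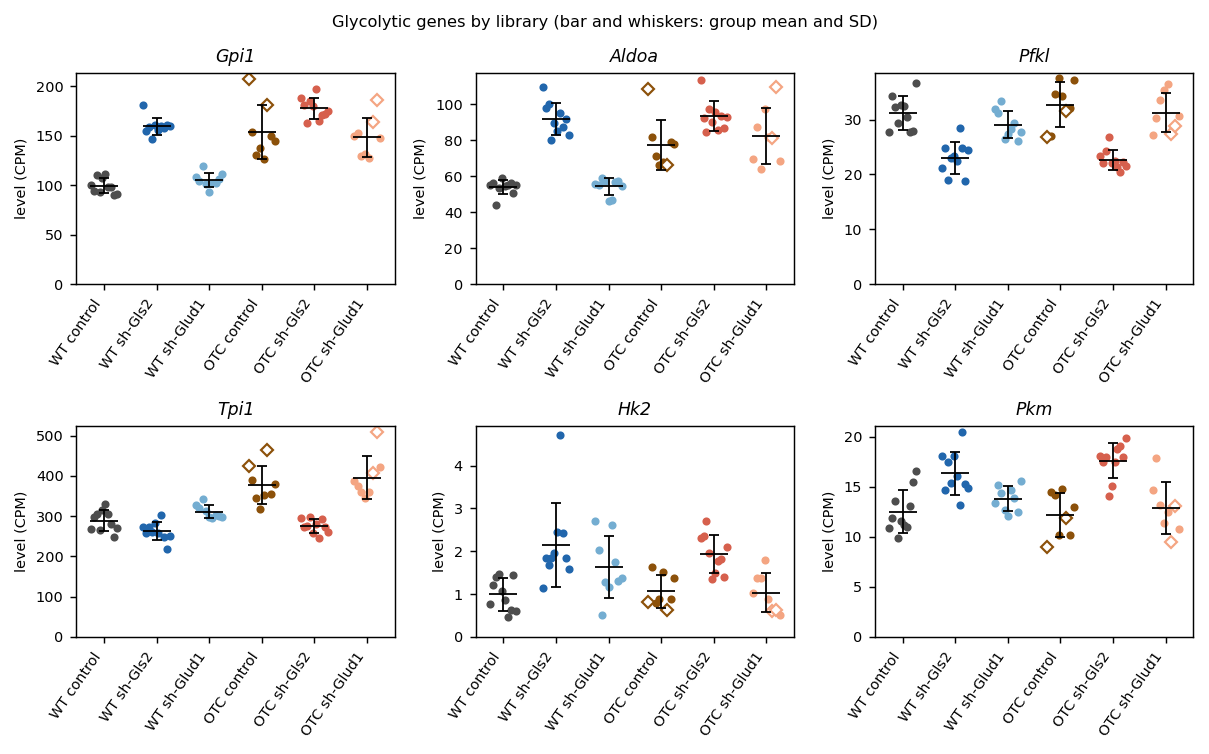
CPM of Gpi1, Aldoa, Pfkl, Tpi1, Hk2 and Pkm in each liver by group, from 0, with the group mean and SD as bar and whiskers and open diamonds for OTC control mice 3 and 67 and OTC sh-Glud1 mice 58 and 65. Gpi1 and Aldoa step up in OTC controls and in both sh-Gls2 groups, Pfkl steps down in both sh-Gls2 groups, and 0 of these 6 genes were called under sh-Glud1.

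Lower glycolysis. Gapdh, Pgam1 and Pkm rose under sh-Gls2 in both strains and Ldha fell. Gapdh, the dehydrogenase of glyceraldehyde 3-phosphate, was at 956 to 1216 CPM (median 1132) in WT control, 1271 to 1798 CPM (median 1494) in WT sh-Gls2 and 1138 to 1457 CPM (median 1233) in WT sh-Glud1 livers. In OTC livers Gapdh was at 966 to 1461 CPM (median 1182), 1275 to 1719.8 CPM (median 1451) and 1119 to 1557 CPM (median 1228) in the same order. WT control and WT sh-Gls2 livers did not overlap, and OTC groups did. The rise was 0.41 ± 0.07 in WT (adjusted p = 1.7e-06) and 0.30 ± 0.07 in OTC livers (adjusted p = 5.5e-04), and against sh-Glud1 0.26 ± 0.07 (adjusted p = 0.0027) and 0.25 ± 0.07 (adjusted p = 0.0043). Gapdh is often used as a reference gene, and here its mean CPM was 1.33 times the control mean under sh-Gls2 in WT and 1.23 times in OTC livers. Gapdh has many processed copies in the mouse genome, as several other glycolytic genes do, so such counts depend on how shared reads were assigned.

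Pgam1, the phosphoglycerate mutase, was at 148 to 195 CPM (median 171) in WT control, 189 to 242 CPM (median 210.2) in WT sh-Gls2 and 161 to 182 CPM (median 168) in WT sh-Glud1 livers. In OTC livers Pgam1 was at 175 to 246 CPM (median 193), 215 to 263 CPM (median 255) and 174 to 303 CPM (median 202) in the same order. It rose by 0.26 ± 0.07 in OTC over WT controls (adjusted p = 0.0018), and under sh-Gls2 by 0.35 ± 0.06 in WT (adjusted p = 1.6e-05) and 0.31 ± 0.07 in OTC livers (adjusted p = 1.8e-04), with ranges that overlapped. Against sh-Glud1 the rises were 0.31 ± 0.07 (adjusted p = 1.9e-04) and 0.24 ± 0.07 (adjusted p = 0.0041). Pgk1, the phosphoglycerate kinase, was higher in OTC than in WT controls (0.17 ± 0.07, adjusted p = 0.048). That call was lost without mice 3 and 67 (0.03, adjusted p = 0.74) and in 14 of 18 omissions of 1 library, those of WT control mice 7, 10, 11, 13, 19, 20, 28, 41 and 77 and of OTC control mice 3, 35, 67 and 72 and the unnumbered OTC control mouse (log2 fold change 0.09 to 0.18, adjusted p 0.050 to 0.32). It was also lost with DESeq2 (adjusted p = 0.060), with DESeq2 size factors (adjusted p = 0.068) and with only the compared groups fitted (adjusted p = 0.17). Other filters on low counts lost it too (adjusted p 0.052 to 0.10), and on TPM it was kept. Group means of Pgk1 lay between 291 (WT sh-Gls2) and 332 CPM (OTC sh-Glud1). Eno1, the enolase, passed the test in none of the 9 comparisons, with group means between 156 (WT sh-Gls2) and 224 CPM (OTC sh-Glud1).

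Pklr, the pyruvate kinase of hepatocytes, whose transcription glucose and insulin raise, was at 79.6 to 305 CPM (median 153) in WT control and 33.7 to 260.0 CPM (median 75.4) in OTC control livers. Under sh-Gls2, Pklr was at 88.2 to 248 CPM (median 107) in WT and 46.6 to 118 CPM (median 74.9) in OTC livers. Under sh-Glud1, Pklr was at 62.03 to 253 CPM (median 184) in WT and 40.2 to 144 CPM (median 79.2) in OTC livers. The ranges overlapped, and OTC control mouse 72, at 260.0 CPM, was the highest of its group. The strain difference was -0.70 ± 0.28 (adjusted p = 0.047), -0.55 (adjusted p = 0.18) without mice 3 and 67, -0.55 (adjusted p = 0.13) without WT control mouse 13 and -1.11 (adjusted p = 9.6e-04) without mouse 72. The call was lost in 13 of 18 omissions of 1 library, those of WT control mice 2, 10, 11, 13, 19, 20 and 28 and of OTC control mice 3, 35, 43, 46 and 67 and the unnumbered OTC control mouse (log2 fold change -0.72 to -0.55, adjusted p 0.050 to 0.13). Pkm, the M form, was at 9.87 to 16.6 CPM (median 11.7) in WT control, 13.2 to 20.5 CPM (median 15.7) in WT sh-Gls2 and 12.1 to 15.6 CPM (median 13.9) in WT sh-Glud1 livers. In OTC livers Pkm was at 9.02 to 14.8 CPM (median 12.4), 14.1 to 19.9 CPM (median 17.9) and 9.502 to 17.9 CPM (median 12.8) in the same order, each sh-Gls2 group higher but overlapping. Pkm rose by 0.39 ± 0.09 in WT (adjusted p = 9.7e-04) and 0.52 ± 0.10 in OTC livers (adjusted p = 3.0e-05), and against sh-Glud1 by 0.45 ± 0.10 in OTC livers (adjusted p = 2.9e-04).

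Ldha, the lactate dehydrogenase subunit of glycolytic tissues and liver, was at 366 to 588 CPM (median 460.5) in WT control and 250.2 to 428 CPM (median 374) in OTC control livers. Under sh-Gls2, Ldha was at 302 to 402 CPM (median 344) in WT and 245 to 349 CPM (median 305) in OTC livers. Under sh-Glud1, Ldha was at 415 to 508 CPM (median 453) in WT and 276 to 432 CPM (median 381) in OTC livers. The highest levels lay in WT control and WT sh-Glud1 livers, and the ranges of the groups compared overlapped except those of WT sh-Gls2 and WT sh-Glud1, which did not. It fell by 0.36 ± 0.08 in OTC against WT controls (adjusted p = 5.2e-04), and under sh-Gls2 the log2 fold change was -0.43 ± 0.08 in WT (adjusted p = 1.6e-05) and -0.22 ± 0.08 in OTC livers (adjusted p = 0.025). The OTC sh-Gls2 call was lost in 5 of 18 omissions of 1 library, those of OTC control mice 35, 43 and 46 and the unnumbered OTC control mouse and of OTC sh-Gls2 mouse 24 (log2 fold change -0.20 to -0.18, adjusted p 0.051 to 0.08). Against sh-Glud1 Ldha was lower in both strains, with log2 fold changes of -0.40 ± 0.08 (adjusted p = 1.0e-04) and -0.26 ± 0.08 (adjusted p = 0.011).

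Glycogen. Ugp2, which makes the UDP-glucose that glycogen is built from, rose under sh-Gls2 while Ppp1r3c and, in OTC livers, Ppp1r3b fell. Ugp2 was at 297 to 546 CPM (median 395) in WT control, 475 to 632 CPM (median 585) in WT sh-Gls2 and 408 to 481 CPM (median 463) in WT sh-Glud1 livers. In OTC livers Ugp2 was at 374 to 520.2 CPM (median 453), 555 to 799.9 CPM (median 661) and 388 to 574 CPM (median 434) in the same order. Every OTC sh-Gls2 liver lay above every OTC control, and the WT ranges overlapped. The rise was 0.48 ± 0.08 in WT (adjusted p = 3.1e-06) and 0.55 ± 0.08 in OTC livers (adjusted p = 7.2e-07), and against sh-Glud1 0.33 ± 0.08 (adjusted p = 0.0015) and 0.54 ± 0.08 (adjusted p = 1.1e-06).

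Ppp1r3b and Ppp1r3c bring protein phosphatase 1 to glycogen and so favour its synthesis. Ppp1r3b was at 73.2 to 340.3 CPM (median 189) in WT control, 37.7 to 241 CPM (median 118) in WT sh-Gls2 and 89.9 to 333 CPM (median 212) in WT sh-Glud1 livers. In OTC livers Ppp1r3b was at 132 to 264 CPM (median 206), 62.3 to 163 CPM (median 113) and 124 to 391 CPM (median 217) in the same order. All groups overlapped and varied widely from mouse to mouse. Ppp1r3b fell by 0.81 ± 0.27 under sh-Gls2 in OTC livers (adjusted p = 0.012), the WT difference was -0.54 ± 0.25 (adjusted p = 0.091), and against sh-Glud1 the differences were -0.71 ± 0.26 in WT (adjusted p = 0.032) and -0.999 ± 0.27 in OTC livers (adjusted p = 0.0022). The WT difference from controls was called in 3 of 20 omissions of 1 library, those of WT control mice 7 and 77 and of WT sh-Gls2 mouse 45 (log2 fold change -0.69 to -0.63, adjusted p 0.029 to 0.048). The WT call against sh-Glud1 was lost in 6 of 19 omissions of 1 library, those of WT sh-Gls2 mice 1, 78 and 79 and of WT sh-Glud1 mice 17, 32 and 40 (log2 fold change -0.67 to -0.60, adjusted p 0.055 to 0.083).

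Ppp1r3c was at 45.7 to 199 CPM (median 92.6) in WT control, 49.5 to 98.6 CPM (median 75.2) in WT sh-Gls2 and 55.2 to 148 CPM (median 90.5) in WT sh-Glud1 livers. In OTC livers Ppp1r3c was at 31.6 to 89.8 CPM (median 73.6), 26.9 to 59.7 CPM (median 34.6) and 24.5 to 117 CPM (median 44.8) in the same order. The ranges overlapped, with the OTC sh-Gls2 livers at the low end. It was lower in OTC than in WT controls (-0.76 ± 0.26, adjusted p = 0.019; -0.71, adjusted p = 0.055, without mice 3 and 67), and fell under sh-Gls2 in WT (-0.61 ± 0.24, adjusted p = 0.047) and OTC livers (-0.88 ± 0.26, adjusted p = 0.0048). The WT call was lost in 11 of 20 omissions of 1 library, those of WT control mice 2, 7, 10 and 19 and of WT sh-Gls2 mice 1, 14, 30, 36, 45, 78 and 79 (log2 fold change -0.62 to -0.49, adjusted p 0.054 to 0.12). Against sh-Glud1 in OTC livers the difference was -0.56 ± 0.26 (adjusted p = 0.079), and -0.77 (adjusted p = 0.018) without the 4 livers.

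Gbe1, the branching enzyme, was at 54.7 to 122 CPM (median 101) in WT control, 64.2 to 138 CPM (median 84.7) in WT sh-Gls2 and 79.8 to 132 CPM (median 124) in WT sh-Glud1 livers. In OTC livers Gbe1 was at 75.5 to 186 CPM (median 104), 76.2 to 123 CPM (median 95.6) and 87.03 to 164 CPM (median 123) in the same order, overlapping throughout. Its 1 call was a lower level in WT sh-Gls2 than in WT sh-Glud1 livers (-0.42 ± 0.14, adjusted p = 0.02). The same difference in OTC livers was -0.35 ± 0.15 (adjusted p = 0.054), and -0.41 (adjusted p = 0.028) without the 4 livers. Pygl, the phosphorylase that breaks glycogen down, was lower in OTC than in WT controls (-0.28 ± 0.09, adjusted p = 0.011; -0.21, adjusted p = 0.075, without mice 3 and 67), with group means between 303 (OTC sh-Glud1) and 428 CPM (WT sh-Glud1). Gys2, the liver glycogen synthase, passed the test in none of the 9 comparisons, with group means between 96.97 (OTC sh-Gls2) and 122 CPM (WT sh-Glud1).

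**Figure D5:**
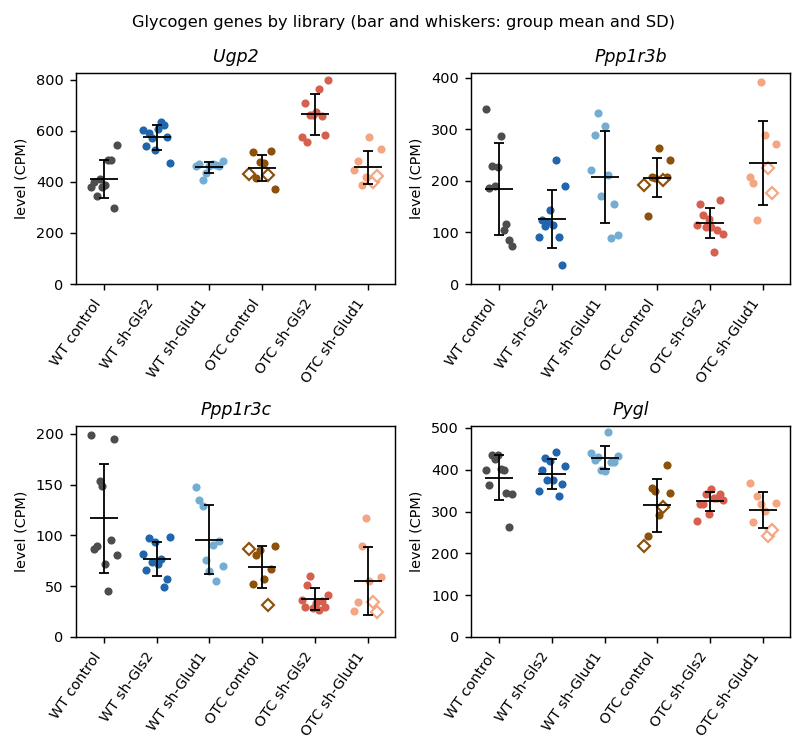
CPM of Ugp2, Ppp1r3b, Ppp1r3c and Pygl in each liver by group, from 0, with the group mean and SD as bar and whiskers and open diamonds for OTC control mice 3 and 67 and OTC sh-Glud1 mice 58 and 65. In the Ugp2 panel every OTC sh-Gls2 liver lies above every OTC control while the WT ranges overlap, and the Ppp1r3b and Ppp1r3c panels show the wide spread between mice.

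The wider pathway was read from a list of 99 other genes, of which 90 were tested. In OTC over WT controls 28 of the 90 rose and 13 fell, against a background of 19.9% and 16.3% of all tested genes. With mice 3 and 67 left out, 17 rose and 14 fell, against 13.9% and 14.8%. The 3 with the smallest adjusted p were Ldhd, the D-lactate dehydrogenase (-1.02 ± 0.12, adjusted p = 3.6e-09), Lpin1, a phosphatidate phosphatase and partner of Ppargc1a (2.97 ± 0.46, adjusted p = 2.1e-06; 0.995, adjusted p = 0.015, without mice 3 and 67), and Pfkm, the muscle phosphofructokinase (0.43 ± 0.07, adjusted p = 2.2e-06). Lpin1 was at 1896 and 1053 CPM in those mice, and its median was 122 CPM in OTC and 57.2 CPM in WT controls. Under sh-Gls2, 11 rose and 20 fell in WT livers (background 17.6% and 17.2%) and 4 rose and 24 fell in OTC livers (background 20.1% and 22.5%), or 11 and 20 in OTC livers without mice 3 and 67 (background 18.6% and 19.6%). Prkar1a, the regulatory subunit that holds protein kinase A inactive without cyclic AMP, fell by 0.42 ± 0.04 (adjusted p = 5.5e-11) in WT livers and 0.47 ± 0.05 (adjusted p = 1.2e-11) in OTC livers. Foxo4, a forkhead relative of Foxo1, fell by 0.35 ± 0.06 (adjusted p = 6.6e-06) and by 0.45 ± 0.06 (adjusted p = 7.1e-08). Pfkm rose by 0.45 ± 0.06 in WT livers (adjusted p = 1.3e-07), and Slc2a8, an intracellular sugar transporter, fell by 0.70 ± 0.08 in OTC livers (adjusted p = 9.0e-10). Hormone signalling genes and regulators made up 12 of the falls in each strain, of 32 tested.

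Under sh-Glud1 0 of the 90 genes were called in either strain. The smallest adjusted p in WT livers was that of Gys1, the muscle glycogen synthase (-0.38 ± 0.13, adjusted p = 0.83), beside Gyg, the glycogen primer (0.28 ± 0.10), and Sik1, a kinase that restrains CREB coactivators (-0.77 ± 0.30). In OTC livers the 3 smallest belonged to Gsk3b, the kinase that inhibits glycogen synthase (0.13 ± 0.05), Foxo4 (-0.15 ± 0.07) and Insr, the insulin receptor (-0.13 ± 0.06), each at an adjusted p of 0.99. None of these passed the test. The strain difference in the effect was called for 0 of the 90 under either hairpin. Between hairpins, sh-Gls2 against sh-Glud1 gave 10 higher and 24 lower in WT livers (background 15.5% and 14.1%). In OTC livers it gave 5 higher and 24 lower (background 19.4% and 21%).

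Within groups the members varied together in part. Each group was centred on its own mean of log2 CPM. The 595 pairs of the 35 genes then had a median Pearson r of 0.05 over the 55 livers. Library totals differed between these livers, and their harvest is given here by week only. Ppargc1a and Foxo1 had the highest r at 0.85, and 0.65 over the 51 livers without the 4 that stood apart. Slc37a4 with Foxo1 gave 0.83 and 0.47, and Pck1 with Ppargc1a 0.81 and 0.60. Of the 10 pairs with the highest r, 4 more were lower over the 51: Gpi1 with Pgk1 at 0.79 and 0.54, Pck1 with Foxo1 at 0.78 and 0.51, Slc37a4 with Pgk1 at 0.74 and 0.25, and Slc37a4 with Ppargc1a at 0.71 and 0.28. The remaining 3 moved by less than 0.05: Khk with Pklr at 0.72 and 0.77, Pklr with Pygl at 0.72 and 0.73, and Gapdh with Pgam1 at 0.72 and 0.71. The lowest r, -0.68 for Hk3 with Pgk1, was -0.19 over the 51 livers. Over all tested genes those closest to Pck1 were Klf15, a transcription factor that glucocorticoids raise (0.87, and 0.74 over the 51), Man2a1 (0.84 and 0.68), Pptc7 (0.82 and 0.65), Zfp281 (0.81 and 0.60) and Por (0.81 and 0.63).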

How the data were processed

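Liver RNA from 55 male mice was sequenced as strand-specific mRNA libraries, per the labels' protocols, and each mouse is 1 replicate. The authors deposited a table of raw counts per gene symbol and a table of TPM values, which are scaled by gene length and library. CASAVA 1.8.2, FastQC and GRCm38 are named in the submitters' processing notes, and the aligner, counter and annotation are not given in the sources used here. The labels planned more mice per group than were analysed here. One count column carries a mouse number found in no title and was placed by its group name as the unnumbered OTC control.

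Counts were filtered (filterByExpr, minimum count 10, minimum total 15), scaled by TMM factors of 0.924 to 1.12 and fitted over all 55 libraries and 6 groups with edgeR 4.0.16 (robust quasi-likelihood test, two-sided, R 4.3.3). In each of 9 comparisons p-values were adjusted over 13311 genes by Benjamini-Hochberg, and an adjusted p under 0.05 was called. CPM values use the same factors, folds are on log2 scale, and ± is the SE unless marked SD. TPM values were used for levels between genes and, with limma 3.58.1, as an alternative, beside DESeq2 1.42.0. The script was tested on simulated counts. All 227 pairs of libraries within groups differed by more than sampling noise.

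The members and lists were chosen with earlier results of these data known. Every member is named. Full values are given for members with a called log2 fold change of at least 0.5 against a control group, or a called difference between strains or hairpins, and of the other pathway genes the 3 with the smallest adjusted p per comparison with a control group are named. The 5 genes with the highest correlation with Pck1 are named too, and Hsd3b5 was chosen after its values were seen. Mice carry unique numbers, so no pairing exists between groups.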

Additional observations from a re-analysis of the deposited data

Results flagged for a closer look

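In 2 genes the effect of sh-Gls2 differed between strains by edgeR's interaction test. The rise of Gpi1 was smaller in OTC than in WT livers by a log2 difference of -0.47 (adjusted p = 0.0096), and that of Aldoa by -0.50 (adjusted p = 0.028). Without OTC control mice 3 and 67 both had an adjusted p of 0.061. Without these and OTC sh-Glud1 mice 58 and 65, an omission chosen after the data were seen, both were called.

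Of 210 gene and group combinations, 23 held a liver far from the rest of its group, by the gap to the next liver. For normally distributed values chance alone flags about 1 in 20. CPM need not be distributed so, and the 2 rates were not tested against each other. The rule can also miss extreme livers that come in pairs, such as OTC control mice 3 and 67 for Pck1. In WT control livers Gckr was low in mouse 7 (113 CPM) and Pklr high in mouse 13 (305 CPM). In WT sh-Gls2 livers 5 of the 23 belonged to mouse 45, which was high for Hk2 (4.71 CPM), Khk (279 CPM), Eno1 (219.7 CPM), Pklr (248 CPM) and Gbe1 (138 CPM), and Gpi1 was high in mouse 1 (181 CPM). In WT sh-Glud1 livers Slc37a4 was high in mouse 70 (117 CPM), Ppargc1a in mouse 57 (23.7 CPM), Pgk1 in mouse 32 (354 CPM), and Pfkfb1 (43.7 CPM) and Pygl (490.5 CPM) in mouse 56.

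In OTC control livers mouse 3 was low for Hk3 (0.162 CPM) and high for Aldoa (108.5 CPM), and mouse 72 was high for Pklr (259.95 CPM) and Gbe1 (186 CPM). In OTC sh-Gls2 livers Pfkp was low in mouse 4 (1.49 CPM), Aldoa high in mouse 21 (114 CPM) and Pgk1 high in mouse 24 (377 CPM). In OTC sh-Glud1 livers mouse 65 was high for Gapdh (1557 CPM), Pgam1 (303 CPM) and Gys2 (155 CPM). These values were not left out of any result above unless the text says so.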

How the results depend on the processing

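Over all members, comparisons and alternatives, 9865 recomputed values kept their direction and their side of the threshold, 479 changed sign without a call in either fit, 165 lost and 110 gained a call, and 2 changed sign with a call. Both of these came without OTC control mice 3 and 67 and OTC sh-Glud1 mice 58 and 65, an alternative chosen after seeing the data: under sh-Gls2 in OTC livers Pck1 was 0.50 (adjusted p = 0.033) and Slc37a4 0.35 (adjusted p = 0.013) on the log2 scale, against -0.07 and -0.28 with all libraries. The number of members called between OTC and WT controls was 15, 10 without OTC control mice 3 and 67, and 11 without the 4 livers. The number called between WT sh-Gls2 and WT sh-Glud1 livers was 11, and 19 when only those groups entered the fit. The number with a strain difference in the sh-Gls2 effect was 2, and 0 on log2(TPM + 1) with or without a filter, 1 on log2(TPM + 0.1), 0 without mice 3 and 67 and 0 without these and WT control mouse 13. Without the 4 livers it was again 2. Over all genes that comparison held 44 calls, between 10 without mice 3 and 67 and 84 by DESeq2. The cause of these shifts was not tested.

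Leaving out each library in turn gave 12 to 15 members called between strains, 11 to 15 under sh-Gls2 in WT and 16 to 19 in OTC livers, 0 in every omission under sh-Glud1 in either strain, 1 to 2 for the strain difference under sh-Gls2, 0 in every omission for that under sh-Glud1, and 10 to 15 in WT and 13 to 17 in OTC livers between hairpins. Several uncalled differences between hairpins passed in single omissions. In WT livers these were Fbp1 (without WT sh-Gls2 mice 34 and 45 or WT sh-Glud1 mice 37 and 70, -0.28 to -0.27), Hk1 (without WT sh-Glud1 mice 56 and 69, 0.27 to 0.28), Khk (without WT sh-Gls2 mice 34 and 45 or WT sh-Glud1 mice 37 and 57, -0.29 to -0.26), Pklr (without WT sh-Gls2 mouse 45, -0.72) and Pkm (without WT sh-Gls2 mice 8, 14 and 45 or WT sh-Glud1 mice 17 and 70, 0.25 to 0.27). In OTC livers they were Ppargc1a (without OTC sh-Glud1 mouse 42, -0.68), Foxo1 (without OTC sh-Gls2 mice 4, 24 and 50 or OTC sh-Glud1 mice 23, 33, 42 and 44, -0.37 to -0.33), Pfkp (without OTC sh-Gls2 mouse 4 or OTC sh-Glud1 mice 23 and 71, 0.40 to 0.42), Pfkfb3 (without OTC sh-Glud1 mouse 23, 0.78), Aldoa (without OTC sh-Glud1 mice 44 and 65, 0.22 to 0.25), Gbe1 (without OTC sh-Gls2 mice 39 and 73 or OTC sh-Glud1 mice 42 and 58, -0.41 to -0.38) and Ppp1r3c (without OTC sh-Gls2 mouse 39 or OTC sh-Glud1 mice 23 and 65, -0.67 to -0.66).

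No paired analysis was possible because every mouse number occurs in 1 group only. With the mouse number as a covariate, which leaves out the unnumbered library, 12 members were called between strains, 10 higher and 2 lower. On TPM the mean filter of 1 TPM left 32 of the 35 genes tested, without Hk2, Hk3 and Pfkp, and with no filter on TPM the sh-Gls2 calls in OTC livers over all genes were 3268 higher and 2140 lower, against 2672 and 2993 on counts. Counts of Hk1, Hk2, Hk3 and Pfkp were low, at medians of 0.880 to 3.82 CPM, which limits their precision. The 4 livers that stood apart are a large part of 2 groups of 8, so values of Pck1, Slc37a4, Ppargc1a and Foxo1 in OTC controls depend on them.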
